A study of Arabidopsis thaliana with 48 samples.

Results

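The transcripts described here belong to 9 calmodulin-like genes of Arabidopsis thaliana, which were taken as a list of locus identifiers. They are CML9 (AT3G51920), CML11 (AT3G22930), CML12 (AT2G41100, first named TCH3), CML23 (AT1G66400), CML24 (AT5G37770, first named TCH2), CML37 (AT5G42380), CML38 (AT1G76650), CML39 (AT1G76640) and CML41 (AT3G50770), that is 9 of the 32833 genes in each of the 4 tables. The study exposed 1 leaf of plants aged 4 to 5 weeks, the local leaf, to excess light of 2000 µmol m-2 s-1 for 0, 2, 4 or 8 min, and froze that leaf together with a distant leaf of the same plants that stayed in growth light, the systemic leaf. The plants had grown in short days at 50 µmol m-2 s-1. Wild type Col (WT) and the rbohD knockout line, mutant for the NADPH oxidase RBOHD, were both treated in this way, and leaves of many plants were pooled into each library. Both leaves, both genotypes and the 4 times gave 16 groups of 3 libraries, 48 in all. Plants without excess light were sampled at 0 min only. In each change against 0 min, the part of excess light cannot be told apart from that of handling or elapsed time.

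Calmodulin is the small protein through which a rise of calcium in the cell is read: it binds calcium through motifs called EF-hands, changes shape and then binds other proteins. Plants carry a large family of calmodulin-like (CML) proteins that share the EF-hands and differ in the rest of the sequence. Some of their genes were first found as TCH genes, named for transcripts that accumulate within minutes after a plant is touched, and such transcripts also respond to wind, wounding, cold and darkness. RBOHD makes superoxide outside the cell, is itself stimulated by calcium, and carries the self-propagating wave of reactive oxygen species and calcium that spreads from the leaf that meets a stress through the whole plant, which is why its knockout was compared with WT.

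On TAIR10.1 the coding sequences of CML9 and CML12 are split over 4 exons, that of CML11 over several, and those of the other genes lie in 1 exon. CML23 lies at chr1:24770419-24771393, CML39 at chr1:28765254-28765866 and CML38 at chr1:28766750-28768138. CML12 lies at chr2:17137037-17139700, CML11 at chr3:8124020-8125931, CML41 at chr3:18873911-18874836 and CML9 at chr3:19267951-19269658. CML24 lies at chr5:14997514-14999619 and CML37 at chr5:16942447-16943820.

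The 250 bases before the annotated start of 3 of these genes are shown because the pair CML23 and CML24 shared most of its response below and CML37 did not follow it. The sequences are those of RefSeq for TAIR10.1, written 5′ to 3′ on the strand of the gene, at chr1:24771394-24771643, minus strand for CML23, at chr5:14999620-14999869, minus strand for CML24 and at chr5:16943821-16944070, minus strand for CML37. Capitals mark the matches on either strand of CGCGTT, the rapid stress response element that CAMTA transcription factors, which are themselves bound by calmodulin, can recognise.
CML23: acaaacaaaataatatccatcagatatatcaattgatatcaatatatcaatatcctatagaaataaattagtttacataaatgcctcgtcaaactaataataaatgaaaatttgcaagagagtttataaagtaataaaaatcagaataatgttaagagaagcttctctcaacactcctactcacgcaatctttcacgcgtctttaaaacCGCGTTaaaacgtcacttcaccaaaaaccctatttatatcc
CML24: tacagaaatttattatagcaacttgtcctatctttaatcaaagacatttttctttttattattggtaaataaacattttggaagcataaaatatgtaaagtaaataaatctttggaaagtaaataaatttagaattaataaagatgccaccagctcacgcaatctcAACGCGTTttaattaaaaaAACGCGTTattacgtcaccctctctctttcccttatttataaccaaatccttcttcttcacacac
CML37: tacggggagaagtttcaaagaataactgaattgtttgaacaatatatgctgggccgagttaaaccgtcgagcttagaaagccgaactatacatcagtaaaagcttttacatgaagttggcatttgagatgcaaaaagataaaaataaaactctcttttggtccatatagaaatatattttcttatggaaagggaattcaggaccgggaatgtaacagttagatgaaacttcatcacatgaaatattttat

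CGCGTT was found in 2 of the 9 windows, those of CML23 with 1 match and of CML24 with 4, where the matches on both strands overlap within AACGCGTT, and it was found in 2.6% of the windows of all 27443 protein-coding genes. The TTGAC core of W-boxes was found in 3 of 9 windows and in 44.9% of all, the G-box CACGTG in 0 of 9 and 6.5%, and TATAAA in 4 of 9 and 47.3%. The longest run that the windows of CML23 and CML24 shared was ctcacgcaatct, which starts at base -71 of CML23 and base -97 of CML24, counted back from the start of the gene. Of all 27443 windows, 2 held it, those of CML23 and CML24 themselves. As the run was picked from these windows, this count carries no test. These matches describe the letters of the windows. Whether any of them takes part in the changes below was not tested.

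Each library held between 13412657 and 28675623 reads assigned to genes. RBOHD itself lay between 1096 and 2153 normalized counts in the 24 WT libraries and between 337 and 697 in the 24 rbohD libraries, which is in the direction of the labels. The 4 tables (WT local, WT systemic, rbohD local, rbohD systemic) were normalized separately, and WT and rbohD were separate experiments, so that levels were not tested across tables and a difference between genotypes cannot be told apart from one between experiments. Size factors, by which reads were divided, were 0.85 to 1.25 in WT local and 0.86 to 1.21 in rbohD local leaves. Those libraries held 18311884 to 28675623 and 13996572 to 18526191 reads. In systemic leaves size factors were 0.90 to 1.18 in WT and 0.82 to 1.38 in rbohD, at 20197316 to 26757890 and 13412657 to 21834017 reads. The same normalized count is thus a larger share of reads in rbohD than in WT, also for RBOHD above. The summed level of 5 leaf mesophyll markers was 44670 to 56330 CPM (reads scaled by the library total), that of 3 root markers 0 to 0.321 and that of 2 flower markers 0.297 to 2.0. In these pooled leaves, fewer cells of a type and less RNA per cell cannot be told apart.

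Normalized counts, that is reads divided by the size factor of the library, were tested on the scale log2(normalized count + 1) with limma, and a transcript was called changed at an adjusted p under 0.05 over all genes of the table. Every log2 change below is on this scale, which understates the change of transcripts with few counts. A gene was tested where at least 3 libraries of the table reached 10 normalized counts. This was met by 8 of the 9 genes in WT local, WT systemic and rbohD local leaves and by 7 in rbohD systemic leaves, where CML11 was also left out. CML38 in every table, CML11 in WT systemic and rbohD local leaves, and CML37 and CML41 in rbohD systemic leaves stayed under 10 in each 0 min library and so were tested only through the lit times. No stretch of 75 bases, the read length, of any of the 9 genes occurs elsewhere in the genome.

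**Figure D1:**
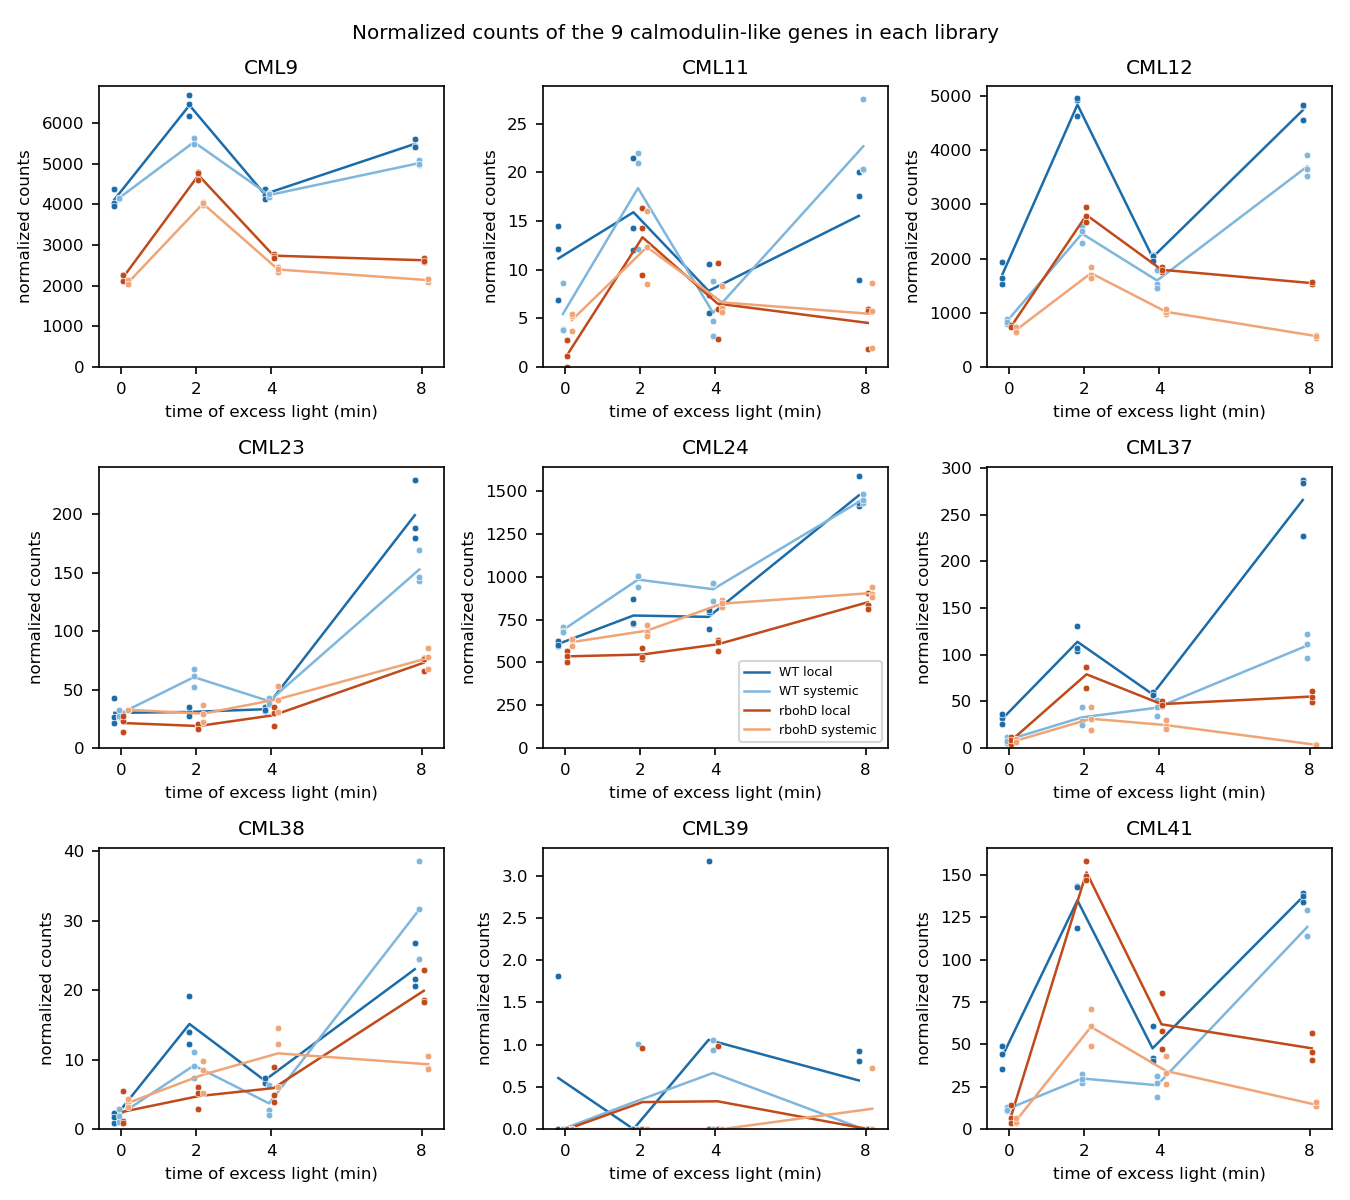
Normalized counts (vertical axes, linear and from 0) of the 9 genes against minutes of excess light on the local leaf. Each point is 1 library, each line joins the means of 3 libraries, and colours give genotype and leaf, whose tables were normalized separately. CML9 and CML12 in both leaves of WT, and CML41 in WT local leaves, show a first maximum at 2 min and a second rise at 8 min. In rbohD systemic leaves, by contrast, CML12 and CML37 end at or under their 0 min level.

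CML12 (TCH3) encodes a member with an extended chain of EF-hands, and its coding sequence of 975 bases is the longest of the 9. In WT local leaves it rose from 1532, 1937 and 1650.4 normalized counts at 0 min to 4928, 4622 and 4959 at 2 min, fell back to 2074, 2046 and 1947 at 4 min, and stood at 4819.8, 4546 and 4838 at 8 min. The 2 and 8 min libraries were all above every 0 and 4 min library, and the log2 changes against 0 min were 1.51 ± 0.06 (SE), adjusted p = 8.95e-16, at 2 min and 1.48 ± 0.06 (SE), adjusted p = 2.32e-15, at 8 min. In WT systemic leaves, which stayed in growth light, CML12 also rose, fell and rose again, with a smaller fall at 4 min. It was 796, 894 and 840.1 at 0 min and 2284, 2593 and 2502 at 2 min. It then was 1539, 1460.2 and 1788 at 4 min and 3911, 3655 and 3531 at 8 min. The 4 min change against 0 min was 0.92 (adjusted p = 2.65e-10), beside 0.25 (adjusted p = 0.00308) in local leaves. The rise at 8 min was 2.13 ± 0.06 (SE), adjusted p = 3.76e-17.

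In rbohD the rise of CML12 at 2 min was present in both leaves, from 743, 649.9 and 649 to 1693, 1650.0 and 1852 normalized counts in systemic leaves (1.35 ± 0.05 (SE), adjusted p = 2.96e-24), and what followed differed. The systemic level went down to 973, 1009 and 1074 at 4 min and to 537, 597 and 579.8 at 8 min, where all 3 libraries lay under the 0 min libraries (-0.25 ± 0.05 (SE), adjusted p = 6.34e-04). In rbohD local leaves the level stood at 1851, 1746 and 1784 at 4 min and 1554, 1525 and 1564 at 8 min, still above the 0 min libraries at 765, 769 and 737 (1.03 ± 0.04 (SE), adjusted p = 8.90e-19). Of the 2 annotated genes that overlap CML12 on the other strand, none had more than 2 reads in any library.

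CML24 (TCH2) and CML23 are a closely related pair without introns in the coding sequence, known for a shared part in the timing of flowering and in nitric oxide responses. They differed in level by more than 10 times per kilobase of coding length, at 1251 ± 33.4 (SD, n = 3) normalized counts per kb for CML24 and 63.6 ± 23.0 for CML23 in WT local leaves at 0 min. Both had their highest mean level at 8 min in all 4 tables, unlike the other members. CML23 in WT local leaves was 21.7, 26.3 and 42.4 normalized counts at 0 min, 30.6, 27.1 and 35.0 at 2 min and 31.7, 35.3 and 32.8 at 4 min. These 3 times overlapped. At 8 min it was 229.7, 179 and 189, a log2 rise of 2.73 ± 0.20 (SE), adjusted p = 1.17e-10.

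In WT systemic leaves CML23 had already risen at 2 min, from 26.9, 27.5 and 32.5 to 67.8, 52.4 and 61.9 normalized counts (1.04 ± 0.15 (SE), adjusted p = 3.27e-06), and it reached 169, 143 and 146 at 8 min (2.36, adjusted p = 1.56e-11). Its rise at 4 min, 0.46 ± 0.15 (SE), adjusted p = 0.0247, was lost when any of 3 libraries was left out (0 min replicates 1 and 2 and 4 min replicate 1), with an adjusted p of up to 0.0871. In rbohD CML23 was not called at 2 or 4 min in either leaf, and at 8 min it was 76.8, 76.6 and 65.8 in local leaves (1.77, adjusted p = 1.00e-06) and 78.3, 67.6 and 85.3 in systemic leaves (adjusted p = 1.94e-05). The rise at 8 min was thus present in each genotype and leaf.

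CML24 had a smaller log2 rise than CML23 at 8 min in each table, and unlike CML23 it was already called higher at 2 and 4 min in WT local leaves. There it went from 627, 597 and 600.1 normalized counts at 0 min to 870.3, 722 and 729 at 2 min, 795, 806 and 696 at 4 min and 1586, 1410.2 and 1428 at 8 min. No 0 min library reached any later library, and the log2 change was 1.27 ± 0.07 (SE), adjusted p = 6.83e-13, at 8 min. The WT systemic leaves held 705, 683 and 679 at 0 min and 1481, 1429 and 1448 at 8 min (1.08 ± 0.05 (SE), adjusted p = 9.10e-14). The systemic level of rbohD went from 625, 635 and 595 at 0 min to 720.3, 679 and 657 at 2 min, to 821, 861 and 847 at 4 min and to 897, 879.8 and 939 at 8 min. The step from 2 to 4 min was called (0.30, adjusted p = 9.96e-07) and that from 4 to 8 min was not (0.10, adjusted p = 0.122). The rbohD rise at 2 min, 0.15 ± 0.05 (SE), adjusted p = 0.00673, was lost without replicate 1 of the 2 min libraries, where the adjusted p was 0.0618. In rbohD local leaves the change was 0.03 ± 0.06 (SE), adjusted p = 0.678, at 2 min and 0.67 ± 0.06 (SE), adjusted p = 2.05e-10, at 8 min.

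CML37 encodes a calcium sensor induced by wounding and insect feeding that promotes jasmonate responses, and it had the largest contrast between genotypes. In WT systemic leaves it rose from 11.8, 5.9 and 7.65 normalized counts at 0 min to 29.3, 25.2 and 44.2 at 2 min, 33.8, 44.3 and 51.6 at 4 min and 122, 96.3 and 111 at 8 min. In rbohD systemic leaves it rose from 7.5, 9.43 and 6.59 to 30.9, 19.3 and 44.1 at 2 min, stood at 23.1, 20.6 and 30.0 at 4 min, and was 2.86, 3.92 and 3.61 at 8 min. At 2 and 4 min the libraries of both genotypes lay above those of 0 min, and the last step went opposite ways: 1.34 ± 0.24 (SE), adjusted p = 1.32e-04 in WT against -2.51 ± 0.32 (SE), adjusted p = 9.06e-08 in rbohD, both from 4 to 8 min.

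Against 0 min, the 8 min change of CML37 was 3.59 ± 0.24 (SE), adjusted p = 4.81e-11, in WT systemic leaves and -0.98 ± 0.32 (SE), adjusted p = 0.0354, in rbohD systemic leaves. The latter rested on 3, 4 and 5 reads, and it was lost in 5 of 6 fits that left out 1 library, all but that without 0 min replicate 3, with adjusted p up to 0.128. In local leaves both genotypes kept a raised level at 8 min, 287, 227 and 284 against 32.0, 36.3 and 26.0 at 0 min in WT (3.04, adjusted p = 3.21e-14) and 49.9, 54.6 and 61.2 against 12.2, 4.37 and 8.25 in rbohD (2.69, adjusted p = 1.40e-10). The local rise of rbohD was largest at 2 min, where the level was 86.5, 64.1 and 86.3.

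CML38, which is induced by wounding and low oxygen and gathers in cytoplasmic RNA granules, was nearly absent before excess light, with 2, 1 and 2 reads in WT local and 1, 3 and 2 in WT systemic leaves at 0 min. At 8 min it had 27, 29 and 23 and 42, 30 and 29 reads. The ratio of summed and scaled reads was 14.4 (95% exact interval 5.91 to 45.5, counting error only) in WT local and 15.7 (6.96 to 43.7) in WT systemic leaves, and the fitted changes had adjusted p = 7.28e-08 and 4.45e-07. In rbohD the same ratio was 8.29 (3.78 to 21.5) in local leaves, adjusted p = 1.57e-05, and 2.47 (1.21 to 5.43) in systemic leaves, adjusted p = 0.0492. That last call was lost when any one of the 6 libraries was left out, with adjusted p up to 0.153. So were those at 4 min in rbohD, without any of 4 libraries in local leaves (adjusted p up to 0.188; 0 and 4 min replicates 2 and 3) and without 0 min replicate 2 or 4 min replicates 2 or 3 in systemic leaves (up to 0.103).

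CML39, the neighbour of CML38 on chromosome 1 with 883 bases between them, is known from seedling establishment and was almost silent in these leaves. It had 13 reads over the 48 libraries and 0 in 38 of them, with at most 3 in a library, so that a change was not detectable at this depth.

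CML41 encodes a protein of plasmodesmata, the channels between plant cells, that takes part in their closure by callose during immune responses. Its 2 min rise was the largest of all members and occurred in rbohD, from 6.63, 14.2 and 3.67 to 149.6, 147 and 158 normalized counts in local leaves (4.23 ± 0.27 (SE), adjusted p = 1.40e-14) and from 3.75, 4.19 and 6.59 to 60.7, 49.3 and 71.1 in systemic leaves (3.41 ± 0.26 (SE), adjusted p = 1.14e-14). In WT the same step went from 49.1, 44.4 and 35.5 to 144, 119 and 143 in local leaves (1.64 ± 0.15 (SE), adjusted p = 3.54e-09) and from 10.8, 12.8 and 11.5 to 27.3, 32.5 and 29.9 in systemic leaves (1.29 ± 0.20 (SE), adjusted p = 9.48e-06). The 2 min local counts of both genotypes were close in number, and the 0 min counts were lower in rbohD. These counts are on separate scales, and the same count is a larger share of the reads in rbohD.

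Afterwards CML41 parted between genotypes. In WT systemic leaves it reached 129.6, 114 and 114 at 8 min, its highest level there (3.25 ± 0.20 (SE), adjusted p = 9.78e-12). In rbohD systemic leaves it declined through 43.3, 32.8 and 26.9 at 4 min to 13.4, 13.7 and 15.9 at 8 min, which was still above each 0 min library (1.42 ± 0.26 (SE), adjusted p = 1.24e-04). The WT local level returned to 42.3, 60.6 and 40.2 at 4 min, overlapping 0 min, and rose again to 134, 139.6 and 138 at 8 min.

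CML9, a negative regulator of abscisic acid and salt responses that also acts in defence, was the most abundant member per kilobase of coding length, at 9026 ± 485 (SD, n = 3) normalized counts per kb in WT local leaves at 0 min. Its changes were small and tight. In WT local leaves it was 4367, 4031 and 3950.2 normalized counts at 0 min, 6678, 6464 and 6170.1 at 2 min, 4385, 4239 and 4132 at 4 min and 5607, 5443 and 5409 at 8 min, that is 0.65 ± 0.04 (SE), adjusted p = 6.72e-12, at 2 min and 0.42 ± 0.04 (SE), adjusted p = 3.91e-08, at 8 min. In rbohD local leaves it went from 2263, 2106 and 2273 to 4604, 4787 and 4759.6 at 2 min (1.09 ± 0.04 (SE), adjusted p = 2.23e-21) and stood at 2786, 2741 and 2692 at 4 min. In rbohD systemic leaves it rose from 2031, 2139 and 2040.5 to 3973, 4053 and 4029.9 at 2 min (0.96 ± 0.03 (SE), adjusted p = 1.04e-25), and at 8 min the libraries overlapped those of 0 min (0.05 ± 0.03 (SE), adjusted p = 0.43). At 0 min the rbohD libraries of both leaves, at 2031 to 2139 in systemic and 2106 to 2273 in local leaves, lay under all WT libraries, at 4136 to 4163 and 3950.2 to 4367, on scales that were not tested against each other. The same count is a larger share of the reads in rbohD, so that the gap in counts overstates that in shares of reads.

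CML11, about whose role in leaves less is known, was near the limit of detection. In WT systemic leaves it had 8, 4 and 4 reads at 0 min, 12, 21 and 19 at 2 min, 5, 9 and 3 at 4 min and 22, 26 and 24 at 8 min, and it was called higher at 2 and 8 min (adjusted p = 9.38e-04 and 2.38e-04). In rbohD local leaves it went from 0, 1 and 3 reads to 14, 9 and 17 at 2 min (adjusted p = 2.79e-05). Its call at 8 min there, on 6, 5 and 2 reads (adjusted p = 0.0449), was lost without replicate 1 or 2 of either time (up to 0.231), and that at 4 min without 0 min replicate 1 or 4 min replicate 3 (up to 0.0573). In WT local leaves it was not called at any time against 0 min.

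**Figure D2:**
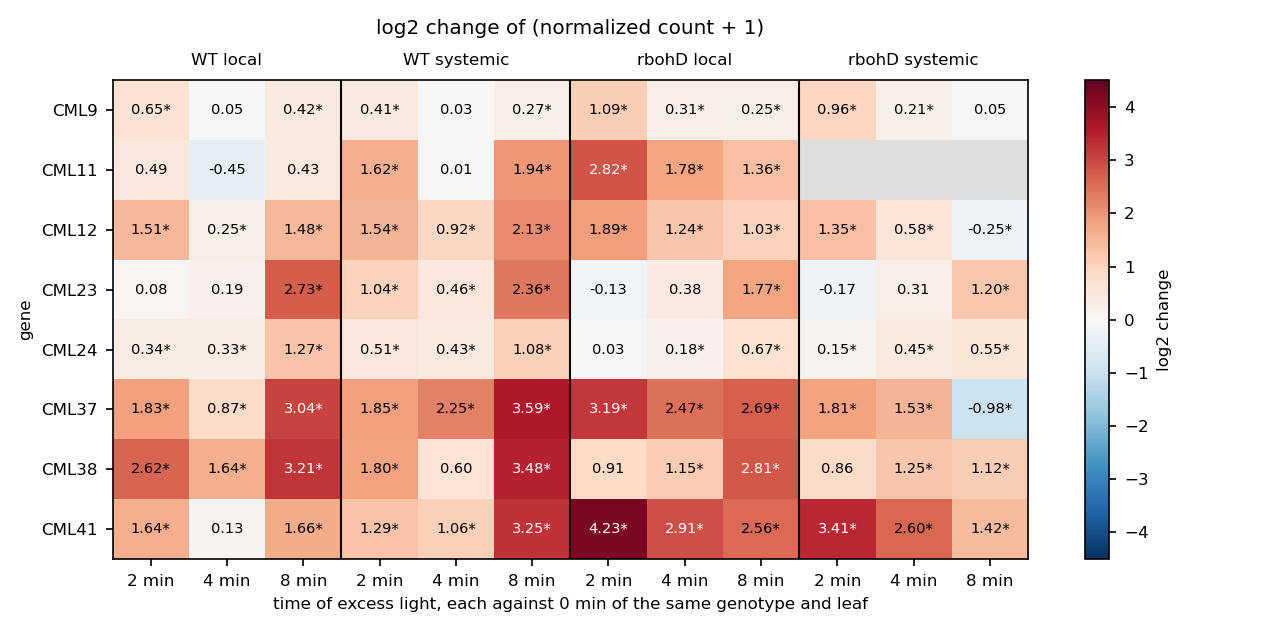
log2 changes of (normalized count + 1) of 8 genes, each time against 0 min of the same genotype and leaf. Columns are the times within each table, colours and printed values give the change, asterisks mark an adjusted p under 0.05, and grey marks CML11 in rbohD systemic leaves, which was not tested. CML12 at -0.25 and CML37 at -0.98 in rbohD systemic leaves at 8 min are the only changes called lower.

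Counted over the members, many rose at each time and few fell. In WT local leaves 6 of 8 rose and 0 fell at 2 min, where 33.4% and 33.5% of all genes tested rose and fell. At 4 min 4 rose and 0 fell, against 13% and 10.8% of all, and at 8 min 7 and 0, against 22.9% and 22.6%. In WT systemic leaves 8 of 8 rose at 2 min (30.4% and 29.9% of all genes rose and fell), 5 at 4 min (13.9% and 14.1%) and 8 at 8 min (21.8% and 22.6%), and 0 fell.

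In rbohD local leaves 5 of 8 rose at 2 min (35.5% and 33.8% of all genes rose and fell), 7 at 4 min (25% and 23.1%) and 8 at 8 min (19.1% and 16%), and 0 fell. The rbohD systemic leaves had 5 of 7 higher and 0 lower at 2 min (31.8% and 31.5%), 6 and 0 at 4 min (13.5% and 12.3%), and 4 and 2 at 8 min (7.51% and 6.79%). The 2 that fell were CML12 and CML37. Without 1 library at a time this last count of 6 calls came to 4 or 5, since the fall of CML37 was lost in 5 of 6 fits and the rise of CML38 in 6 of 6. Median changes of the tested members at 8 min were 1.57 and 2.25 in WT local and systemic leaves and 1.57 and 0.55 in those of rbohD, while the median over all genes lay between -0.01 and 0.03 at every time. Because several members were tested only through the lit times, these counts describe the members and carry no test.

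A return at 4 min was seen in WT. CML9, CML12, CML37, CML38 and CML41 in WT local leaves, and CML9, CML11, CML12, CML23 and CML38 in WT systemic leaves, fell from 2 to 4 min and rose from 4 to 8 min with both steps called, 5 of 8 in each, and 14.3% and 13.4% of all genes tested did so. In rbohD it was 0 of 8 in local and 0 of 7 in systemic leaves, against 3.09% and 2.41% of all, and the difference between genotypes in this pattern was not tested. The fall of CML38 from 2 to 4 min was lost without 2 min replicate 2 in WT local leaves (adjusted p = 0.073), and without 4 min replicate 2 or 2 min replicate 3 in WT systemic leaves (up to 0.0773).

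Taken step by step, 0 members rose and 6 fell from 2 to 4 min in WT local leaves (33.1% and 32.1% of all genes rose and fell), and 0 and 5 in WT systemic leaves (30.9% and 28.8%). Without 1 library at a time these counts of calls ranged from 4 to 6 and from 4 to 5. The fall of CML11 in WT local leaves (adjusted p = 0.0267) was lost in 3 of 6 such fits, up to 0.13, and with DESeq2. In rbohD 1 rose and 4 fell in local leaves (28.1% and 26%), and 2 and 3 in systemic leaves (28.3% and 26.6%). The local rise was that of CML24 (adjusted p = 0.0347), and it was lost in 4 of 6 fits that left out 1 library, up to 0.149. The systemic count of 5 was 4 in each such fit, where the rise of CML23 was lost in 4 of 6, up to 0.256, or the fall of CML41 in 2 of 6, up to 0.0646. From 4 to 8 min 7 members rose and 0 fell in WT local leaves (19% and 19.9%), and 8 and 0 in WT systemic leaves (21.5% and 18.5%). In rbohD 3 rose and 1 fell over this step in local leaves (14.8% and 13.4%), and 1 rose and 4 fell in systemic leaves (11.8% and 11.5%).

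The comparison of genotypes asked whether the change against 0 min was larger in WT or in rbohD, as an interaction fitted over the 24 libraries of a leaf. In systemic leaves at 8 min, 7 of 7 members had a larger rise in WT, against 16.8% of all genes, and 0 in rbohD, against 19%. CML37, CML38 and CML41 were tested in rbohD systemic leaves only through the lit times, and CML11 was not tested. The members were also chosen with earlier results known, so this count carries no test. The difference of log2 changes was 4.57 ± 0.39 (SE), adjusted p = 7.58e-12, for CML37, with a 95% interval of 3.77 to 5.37. It was 2.38 ± 0.09 (SE), adjusted p = 7.35e-22, for CML12. For CML38 it was 2.36, for CML41 1.83, for CML23 1.16, for CML24 0.53 and for CML9 0.23. These 7 calls held without any one of the 12 libraries compared and under each of the 7 other settings.

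Earlier the difference ran the other way for part of the members. In local leaves at 2 min, CML41 (-2.59 ± 0.34 (SE), adjusted p = 5.98e-08), CML11 (-2.33), CML37 (-1.36), CML9 (-0.45) and CML12 (-0.38) had the larger rise in rbohD, 5 of 8 against 29.7% of all genes. CML38 (1.72) and CML24 (0.31) had the larger rise in WT, 2 of 8 against 24.6%, and the call of CML38 was lost without rbohD 0 min replicate 1 (adjusted p = 0.0765). The 5 with the larger rise in rbohD all had lower mean 0 min counts there. These were 8.17 against 43.0 in WT for CML41, 1.28 against 11.2 for CML11 and 8.26 against 31.4 for CML37. CML9 had 2214 against 4116 and CML12 757 against 1706, all on separate scales. Of the 2 with the larger rise in WT, CML24 was lower in rbohD (535 against 608) and CML38 was not (2.51 against 1.64). The part of the 0 min levels in these differences was not tested. At 4 min the same 5 members had the larger change in rbohD (-2.78 for CML41 to -0.26 for CML9), 17.5% of all genes did so, and 0 members but 15.9% of all genes had it in WT. At 8 min 4 of 8 had the larger rise in WT, CML23 (0.96), CML24 (0.61), CML12 (0.45) and CML9 (0.17), against 6.92% of all, and 0 in rbohD, against 11.5%. The calls of CML23 and CML9 at 8 min were each lost in 7 of 12 fits that left out 1 library (adjusted p up to 0.121 and 0.0988).

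In systemic leaves at 2 min the pair CML23 (1.21 ± 0.25 (SE), adjusted p = 9.75e-05) and CML24 (0.37 ± 0.07 (SE), adjusted p = 2.51e-05) rose more in WT, 2 of 7 against 26.4% of all genes, and CML41 (-2.12 ± 0.32 (SE), adjusted p = 6.94e-07) and CML9 (-0.54 ± 0.05 (SE), adjusted p = 2.14e-12) rose more in rbohD, against 29.4%. For CML37 the difference at 2 min was 0.04 with a 95% interval of -0.76 to 0.84, not called. At 4 min CML12 (0.33) rose more in WT (8.26% of all genes), and CML41 (-1.54) and CML9 (-0.19) more in rbohD (10.2%). CML41 and CML9 therefore changed sign between 4 and 8 min in this comparison, and both started from lower 0 min counts in rbohD, whose part in this was not tested.

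**Figure D3:**
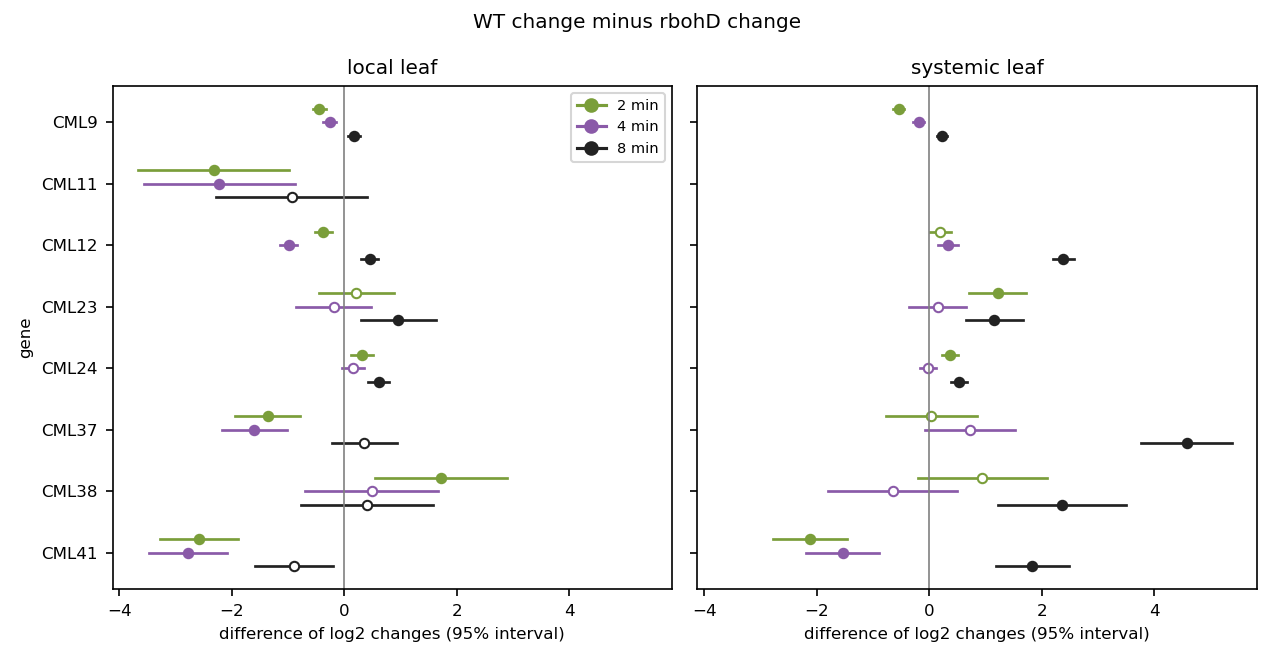
Change against 0 min in WT minus that in rbohD, in log2 units, for local (left) and systemic leaves (right) at 2, 4 and 8 min. Points are fitted differences, bars 95% intervals and filled points an adjusted p under 0.05, and CML11 was not tested in systemic leaves. All 7 filled 8 min points in systemic leaves lie above 0, from 0.23 for CML9 to 4.57 for CML37.

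The comparison of leaves asked whether the lit leaf changed more than the distant leaf of the same genotype. In WT at 8 min, CML12 (-0.65 ± 0.10 (SE), adjusted p = 4.83e-06) and CML41 (-1.59 ± 0.25 (SE), adjusted p = 1.20e-05) had the larger rise in the systemic leaf, 2 of 8 against 8.22% of all genes, and 0 members had a larger rise in the local leaf, against 5.58%. For CML37 the WT difference at 8 min was -0.55 with a 95% interval of -1.13 to 0.04, and for CML38 -0.27 with -1.32 to 0.79, neither called. At 4 min CML12 (-0.66), CML37 (-1.39) and CML41 (-0.93) changed more in the systemic leaf (4.13% of all genes), and 0 members more in the local leaf (2.22%). The call of CML41 was lost without WT local 0 min replicate 1, local 4 min replicates 1 or 3 or systemic 4 min replicate 2 (adjusted p up to 0.0652). At 2 min CML9 (0.23) rose more in the local leaf (5.33%) and CML23 (-0.96) more in the systemic leaf (6.72%), the latter lost without WT local 0 min replicate 3 (adjusted p = 0.0503).

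In rbohD the calls at 8 min lay on the side of the local leaf. Whether the leaf difference itself differed between genotypes was not tested. At 8 min 5 of 7 members had the larger rise in the local leaf, against 11.9% of all genes, and 0 in the systemic leaf, against 9.02%. They were CML37 (3.67 ± 0.39 (SE), adjusted p = 3.92e-10), CML12 (1.28 ± 0.07 (SE), adjusted p = 2.20e-19), CML9 (0.20), CML41 (1.15) and CML38 (1.69). The calls of CML41 and CML38 were lost in 5 and 10 of 12 fits without 1 library, with adjusted p up to 0.151 and 0.132. For CML23 the difference was 0.57 with a 95% interval of -0.09 to 1.22 and for CML24 0.12 with -0.03 to 0.27, not called. At 2 min CML37 (1.38), CML12 (0.54) and CML9 (0.13) rose more in the local leaf (11.3%) and 0 more in the systemic leaf (14.5%), where CML9 was lost in 5 of 12 fits (up to 0.145) and CML37 with edgeR and with DESeq2 (up to 0.0812). At 4 min CML12 (0.66) rose more in the local leaf (8.16%) and CML24 (-0.27) more in the systemic leaf (8.43%), the latter lost without rbohD local 4 min replicate 2 (adjusted p = 0.0502).

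**Figure D4:**
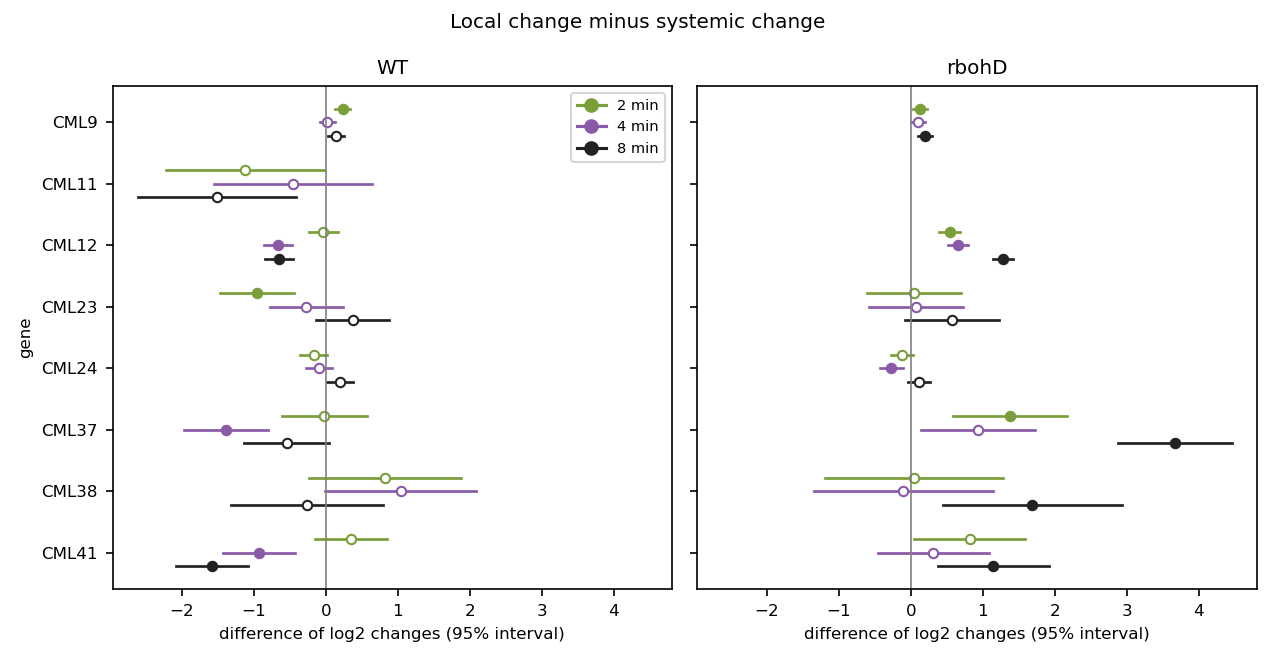
Change against 0 min in local leaves minus that in systemic leaves, in log2 units, for WT (left) and rbohD (right) at 2, 4 and 8 min. Points are fitted differences, bars 95% intervals and filled points an adjusted p under 0.05, and CML11 was not tested in rbohD. CML12 lies at -0.65 in WT and at 1.28 in rbohD at 8 min.

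The members did not share 1 time course. Over the 12 changes against 0 min (3 times in 4 tables, where the 3 times of a table share their 0 min libraries), CML23 and CML24 had a Pearson correlation of 0.956, CML12 and CML37 of 0.877, and CML9 and CML24 of -0.39. Among 13766 genes tested in all 4 tables with a mean of at least 50 normalized counts in each, the one most like CML23 was CML24, followed by ACS6 (0.932). Those most like CML12 were MKK5 (0.978) and SYP121 (0.973), those most like CML37 were AT5G41750 (0.990) and ADR1-L2 (0.945), and those most like CML41 were GRP3S (0.949) and RBL4 (0.948). CML9 was most like CID11 (0.990) and SPD1 (0.989), CML24 like AT3G56880 (0.964) and AT1G32920 (0.963), and CML38 like AT1G72920 (0.914) and STZ (0.881). These values describe 12 changes that share libraries and were given no test.

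Of 37 other CML genes, 19 were tested in local and 18 in systemic leaves of WT and 16 in each leaf of rbohD. At 2 min 14 rose and 0 fell in WT local leaves (33.4% and 33.5% of all genes), and 13 and 0 in WT systemic leaves (30.4% and 29.9%). In rbohD 12 rose and 0 fell in local leaves (35.5% and 33.8%), and 12 rose and 1 fell in systemic leaves (31.8% and 31.5%). The largest 2 min change was that of CML8 in WT local leaves (1.87, adjusted p = 0.00409) and that of CML40 in the other tables (1.66 in WT, 3.25 and 3.75 in local and systemic leaves of rbohD). The lowest values, those of CML22 (-0.05 in WT local and -0.33 in rbohD systemic leaves), CML14 (0.06 in WT systemic leaves) and CML42 (-0.31 in rbohD local leaves), were not called. The gene that fell in rbohD systemic leaves was CML14 (-0.21, adjusted p = 0.0425).

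At 8 min 14 rose and 0 fell among the other CML genes in WT systemic leaves (median 1.11), where 21.8% of all genes rose, and 3 rose and 1 fell in rbohD systemic leaves (median 0.00), where 7.51% rose. In local leaves 13 rose and 0 fell in WT (22.9% and 22.6% of all genes), and 8 rose and 1 fell in rbohD (19.1% and 16%). CML10, which ends 37 bases before CML12 on the same strand, changed at 8 min by 1.15 in WT systemic (adjusted p = 5.66e-15) and by -0.08 in rbohD systemic leaves (adjusted p = 0.0915).

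Of the 7 calmodulins 5 rose and 2 fell at 2 min in WT local leaves (median 0.18), 3 rose and 1 fell in WT systemic (0.04), 3 rose and 4 fell in rbohD local (-0.11) and 2 rose and 3 fell in rbohD systemic leaves (-0.02). Of all genes, 33.4% rose and 33.5% fell in WT local and 30.4% and 29.9% in WT systemic leaves. In rbohD these shares were 35.5% and 33.8% in local and 31.8% and 31.5% in systemic leaves. CAM2, which starts 482 bases after CML12, had the highest 2 min change of the 7 in each table (0.62 to 1.13). The lowest was that of CAM4, which lies 2719 bases from CML23, in 3 tables (-0.20 and -0.39 in WT and -0.71 in rbohD systemic leaves), and that of CAM7 in rbohD local leaves (-0.40). CAM1, which lies 4846 bases from CML24, changed by 0.21 in WT local and -0.70 in rbohD systemic leaves, both called. At 8 min 4 rose and 0 fell in WT local leaves (22.9% and 22.6% of all genes), and 5 and 0 in WT systemic leaves (21.8% and 22.6%). In rbohD 2 rose and 0 fell in local leaves (19.1% and 16%), and 2 rose and 1 fell in systemic leaves (7.51% and 6.79%).

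Among the 6 CAMTA factors 6 rose and 0 fell at 2 min in WT local leaves (median 0.30), where 33.4% of all genes rose, and 5 rose and 0 fell in WT systemic leaves (median 0.20; 30.4%). In rbohD 4 rose and 1 fell in local leaves (median 0.32; 35.5%) and 2 rose and 1 fell in systemic leaves (median 0.04; 31.8%). The highest change was that of CAMTA3 in WT (0.72 and 0.48) and of CAMTA6 in rbohD (1.12 and 1.04), in local and systemic leaves. The lowest was that of CAMTA5 in WT (0.18 and 0.11) and of CAMTA1 in rbohD (-0.57 and -0.51). The counts of these lists were not tested between genotypes.

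Of 8 touch-induced genes outside the family, 8 rose and 0 fell at 8 min in WT systemic leaves (median 3.17), where 21.8% and 22.6% of all genes did. In rbohD systemic leaves 5 rose and 1 fell (median 0.97), beside 7.51% and 6.79% of all genes. XTH22 (TCH4), which encodes an enzyme that remodels cell walls, had the largest 2 min change of them in WT systemic leaves (3.27), and at 8 min it changed by 4.03 there (adjusted p = 7.84e-15) and by 1.66 in rbohD systemic leaves (adjusted p = 2.77e-21). The zinc finger genes ZAT10 (2.06 in WT local and 1.86 in rbohD systemic leaves) and ZAT12 (adjusted p = 1.98e-11 in rbohD local leaves) had the largest 2 min change in the other tables. The lowest 2 min changes were those of WRKY18 in WT (-0.33 and -0.43) and of CBF2 in rbohD (-0.79 and -0.26, the latter not called), in local and systemic leaves.

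Of 9 wound and jasmonate genes 6 were tested. At 2 min 3 rose and 3 fell in WT local leaves (33.4% and 33.5% of all genes), and 0 and 5 in WT systemic leaves (30.4% and 29.9%). In rbohD 4 rose and 2 fell in local leaves (35.5% and 33.8%), and 3 rose and 1 fell in systemic leaves (31.8% and 31.5%). The highest 2 min change was that of JAZ1 in WT local leaves (1.07) and of JAZ5, a repressor of jasmonate responses like JAZ1, in rbohD (1.90 and 1.70). In WT systemic leaves JAZ5 was highest but not called (adjusted p = 0.993), and OPR3 lowest (-0.90), while AOS was lowest in the other tables (-0.68, -0.46 and -0.33). AOS and OPR3 encode enzymes of jasmonate synthesis. At 8 min 2 rose and 1 fell in WT systemic leaves, where 21.8% and 22.6% of all genes did, and 0 rose and 2 fell in rbohD systemic leaves, beside 7.51% and 6.79%.

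**Figure D5:**
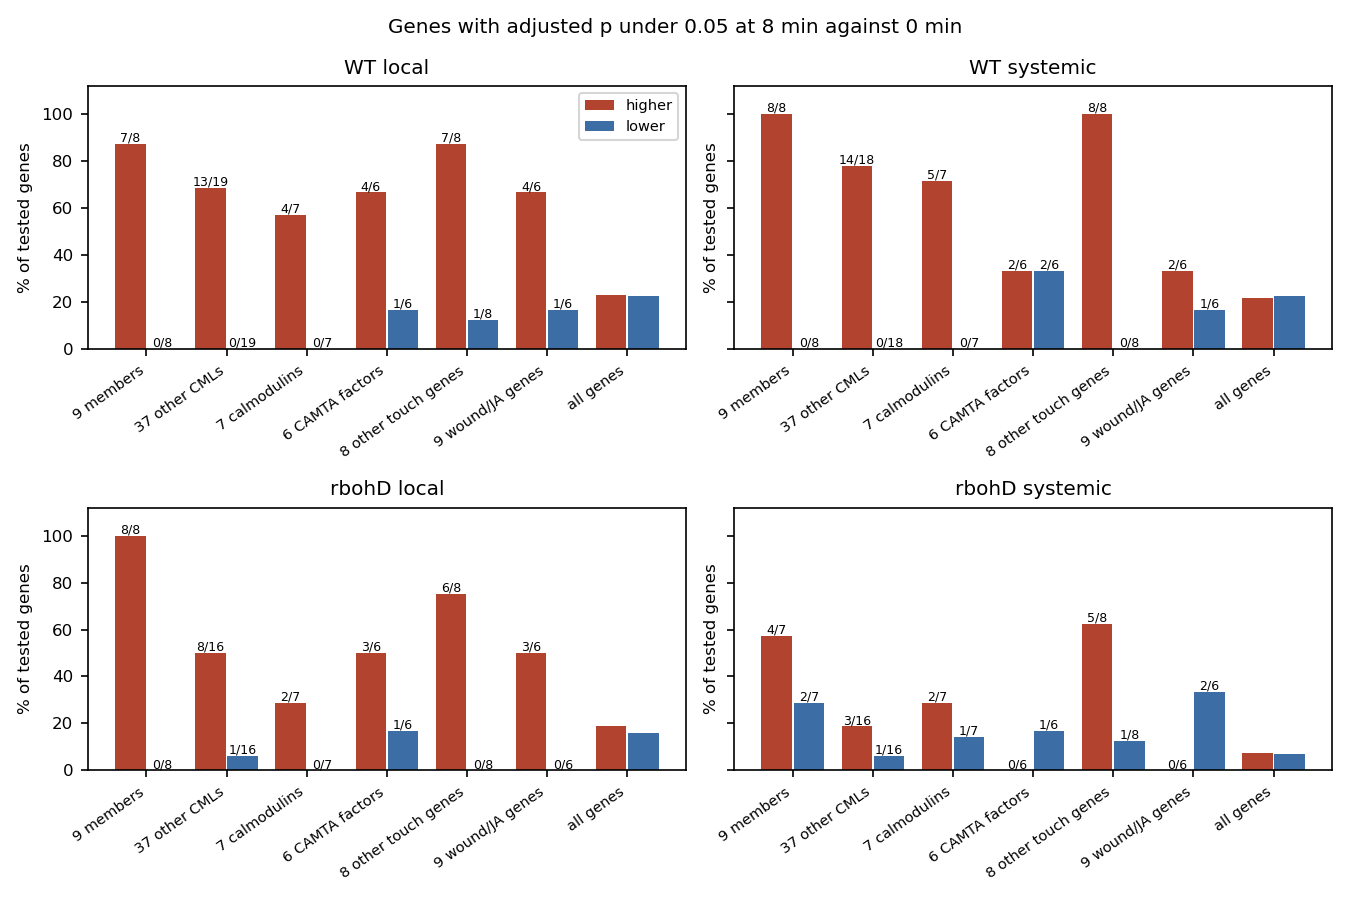
Share of tested genes with an adjusted p under 0.05 at 8 min against 0 min, higher (red) or lower (blue), for the 9 members, 5 related lists and all genes in each table. Numbers over the bars give the called and the tested genes. In rbohD systemic leaves 4 of 7 members were higher and 2 lower, beside 3 of 16 other CML genes higher.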

How the data were processed

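RNA-seq was made from 48 libraries of pooled leaves with a stranded kit. Per the labels and the methods of the study, reads were checked with FastQC 0.11.7, aligned to TAIR10 with STAR 2.4.0.1 and normalized with DESeq2 1.20.0. Whether the counting used strand is not given in the sources used here. The deposited values are a signal, reads per gene divided by the size factor of the library, in 4 tables that the authors normalized separately, and multiplying by the size factor gave whole reads within 0.01 for 100.0% of values. Columns left out numbered 0.

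log2(normalized count + 1) was fitted with limma 3.58.1 (R 4.3.3, trend) over the 12 libraries of a table, or 24 for differences between leaves or genotypes, on genes with at least 10 normalized counts in 3 libraries. Tests were two-sided with Benjamini-Hochberg adjustment over all genes tested and a threshold of 0.05. The study tested counts with DESeq2. As the deposited values are normalized, DESeq2 1.42.0 and edgeR 4.0.16 on recovered reads were alternatives, beside a pseudocount of 5, no filter, only the groups compared, libraries rescaled to one total, replicate blocks, and each library left out. The replicates are pools of plants, and p-values measure the spread between these libraries. Replicate numbers were not shown to pair samples. Scripts were tested on simulated data.

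All 9 members are named. For each member tested in all tables, the 2 genes with the highest Pearson correlation of the 12 changes are named, among genes with a mean of at least 50 normalized counts in each table. From each other list, the genes with the highest and the lowest change at 2 min in a table and those beside a member on the chromosome are named. The members and lists were chosen with earlier results of these data known. Gene IDs were matched to RefSeq TAIR10.1 for 32548 of 32833 (99.1%). Intervals on read ratios cover counting error only, at 95% and for between 13412657 and 28675623 reads per library.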

Additional observations from a re-analysis of the deposited data

Results flagged for a closer look

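At least 1 member was called by the interaction test in each of the 12 comparisons of changes, and these counts carry no test. In local leaves the change against 0 min differed between genotypes for 7, 5 and 4 of 8 members at 2, 4 and 8 min. Of all genes, 24.6% had the higher change in WT and 29.7% in rbohD at 2 min. These shares were 15.9% and 17.5% at 4 min and 6.92% and 11.5% at 8 min. For systemic leaves the numbers were 4, 3 and 7 of 7 members. The shares of all genes there were 26.4% and 29.4%, 8.26% and 10.2%, and 16.8% and 19%. At 2 min in systemic leaves, 2 of 7 members had the higher change in WT and 2 in rbohD, close to the shares of all genes. In WT the change differed between leaves for 2, 3 and 2 of 8 members, and in rbohD for 3, 2 and 5 of 7. Of all genes in WT, 5.33% had the higher change in the local and 6.72% in the systemic leaf at 2 min. The WT shares were 2.22% and 4.13% at 4 min and 5.58% and 8.22% at 8 min. In rbohD they were 11.3% and 14.5%, 8.16% and 8.43%, and 11.9% and 9.02%. The 7 members in systemic leaves at 8 min all had the larger rise in WT. Genotype coincides with experiment, and the part of the experiment in these differences cannot be told apart.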

How the results depend on the processing

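Of 167 calls on members, 142 were kept under every alternative that gave an adjusted p. Of the calls, 24 were lost without at least 1 library and 21 under another setting, and none turned its direction. An alternative that gave no adjusted p was not counted as a loss. This was so with DESeq2 for CML23 and CML41 at 8 min in rbohD systemic leaves, whose calls are among those kept. In rbohD systemic leaves at 8 min DESeq2 called 2 members, of 3 with an adjusted p, in place of 6. The leaf difference in WT involved 1 member at 2 min with only the groups compared and 4 at 8 min with edgeR, and in rbohD 1 at 2 min with edgeR and 3 at 8 min with edgeR or DESeq2. The cause was not tested. Without 1 library at a time, the leaf difference ranged from 1 to 3 members in WT at 2 min, 2 to 4 in WT at 8 min, 1 to 3 in rbohD at 4 min and 3 to 5 in rbohD at 8 min, and the genotype difference in local leaves at 8 min from 2 to 5. Rescaling libraries to one total shifted the median of all genes by -0.02 to 0.17 on the log2 scale and lost 0 calls. Same-numbered replicates deviated together with median correlations near 0, and the replicate block changed no call, with 7 members called in the genotype difference in systemic leaves at 8 min. Depth limits CML11, CML38 and CML39, whose 0 min levels rest on a few reads. It also limits CML41 in rbohD, with 6, 13 and 4 reads at 0 min in local and 4, 4 and 6 in systemic leaves. CML37 had 11, 4 and 9 reads in rbohD local, 8, 9 and 6 in rbohD systemic and 11, 6 and 8 in WT systemic leaves at 0 min.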

Other observations

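Levels at 0 min, before any excess light, come from tables that were each normalized on its own and were not tested against each other. CML12 lay at 1532 to 1937 normalized counts in WT local and 796 to 894 in WT systemic leaves. CML41 lay at 35.5 to 49.1 and 10.8 to 12.8, and CML37 at 26.0 to 36.3 and 5.9 to 11.8. In rbohD the same leaves gave 737 to 769 and 649 to 743 for CML12, and 4.37 to 12.2 and 6.59 to 9.43 for CML37, where local and systemic libraries overlapped.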
